A study of Mus musculus with 34 samples.

Results

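The 10 genes described here encode histone lysine methyltransferases: Setd7, Nsd1, Nsd2, Nsd3, Setd2, Kmt2a, Kmt2c, Kmt2d, Ash1l and Ezh2. They were taken by symbol, and all 10 were found among the 16562 genes tested in the cultures and the 12595 genes tested in the tumours. Setd7 and Nsd1 are also genes that the study singled out from these tumours, so their choice is not independent of the tumour data. The question was whether these 2 genes behaved differently from related enzymes. All samples came from MOSJ-Dkk1, a red fluorescent line of mouse osteochondral sarcoma in which a lentiviral vector expresses human Dkk-1, a secreted Wnt inhibitor, from the CMV promoter.

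The 18 cultures were in log phase growth or were held confluent under nutritional stress. In each condition 3 cultures received no morpholino (NT), 3 received DkkMo, a vivo morpholino directed against Dkk-1, and 3 received scrMo, its mismatched control, both at 5 µM in the labels. For DkkMo in log phase a legend of the study gives a higher concentration, and which applies was not settled. The 16 tumours were grown in nude mice about 2 months of age that lack Foxn1 and therefore T cells, and were fixed in formaldehyde before RNA extraction. They came in 4 groups of 4: NT, which received the vehicle, doxorubicin (DRB), DkkMo, and DkkMo with DRB (combination). The tumour series had no scrMo group. Values are deposited log2-scale values and the normalized counts recovered from them, and the 2 tables were transformed separately, so cultures and tumours were compared only within themselves. The titles number 2 of the 3 stressed NT libraries alike, and no source used here says that replicates were grown apart, so p values may measure a partly technical spread.

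Methylation of histone lysines marks chromatin according to the residue. Methylation of H3K4 marks active promoters and enhancers, methylation of H3K36 marks transcribed gene bodies, and methylation of H3K27 marks genes silenced by Polycomb. Kmt2a (MLL1) acts at promoters, and Kmt2c and Kmt2d (MLL3 and MLL4) act mainly at enhancers, where they place the first methyl group on H3K4. Setd7 also monomethylates H3K4 and has many substrates that are not histones. Nsd1, Nsd2, Nsd3 and Ash1l place up to 2 methyl groups on H3K36, Setd2 completes trimethylation, and Ezh2 is the catalytic subunit of Polycomb repressive complex 2 and methylates H3K27. NSD1 is mutated in an overgrowth syndrome, and several of the family are altered in cancers.

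Setd7 (ENSMUSG00000037111) lies on the minus strand at chr3:51515319-51560879 of GRCm38 and Nsd1 (ENSMUSG00000021488) on the plus strand at chr13:55209782-55318325. RefSeq promoter windows (GRCm38.p6) were matched for Setd7, Setd2, Kmt2a, Kmt2c, Kmt2d and Ezh2. Windows upstream of 3 genes are shown because their transcripts responded differently to stress in untreated cultures, as described below: Setd2 and Kmt2d rose and Setd7 did not pass the test. Each is written 5′ to 3′ on the strand of the gene, and capitals mark the GC box GGGCGG, read on either strand and with overlapping copies counted. The printed stretches are chr3:51560880-51561073 for Setd7, chr9:110532347-110532596 on the plus strand for Setd2 and chr15:98871206-98871455 on the minus strand for Kmt2d. For Setd7 these are the 194 bases of its 250-base window (chr3:51560824-51561073) that lie outside the annotated gene.
Setd7: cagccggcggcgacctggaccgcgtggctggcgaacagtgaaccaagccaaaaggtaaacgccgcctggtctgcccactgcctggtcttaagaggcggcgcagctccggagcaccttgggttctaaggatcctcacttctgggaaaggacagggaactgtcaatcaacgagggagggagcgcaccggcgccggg
Setd2: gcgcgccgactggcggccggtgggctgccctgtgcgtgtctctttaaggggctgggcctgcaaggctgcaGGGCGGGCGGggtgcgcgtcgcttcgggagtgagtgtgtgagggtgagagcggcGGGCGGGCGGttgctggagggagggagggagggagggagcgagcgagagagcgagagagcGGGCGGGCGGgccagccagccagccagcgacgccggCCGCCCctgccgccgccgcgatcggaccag
Kmt2d: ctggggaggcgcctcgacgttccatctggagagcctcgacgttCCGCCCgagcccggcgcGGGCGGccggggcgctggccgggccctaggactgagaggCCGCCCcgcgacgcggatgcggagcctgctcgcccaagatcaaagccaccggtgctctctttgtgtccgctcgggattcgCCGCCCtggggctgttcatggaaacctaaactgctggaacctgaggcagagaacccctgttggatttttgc
The 250-base windows held 0 GC boxes for Setd7 and Ezh2, 4 for Kmt2a and Kmt2d, 7 for Setd2 and 12 for Kmt2c. Ezh2, whose window had 0 bases outside the annotated gene, held 3 copies of CCAAT and the others held 0. Of 32851 mouse promoter windows, 32.7% held a GC box and 33.9% a CCAAT box. The full 250-base Setd7 window, which is longer than the stretch printed, contained 17 CpG dinucleotides, against a median of 6 over all windows. This was the fewest among the matched genes, of which the others held from 23 (Ezh2) to 48 (Kmt2c). These matches describe the letters of the windows and say nothing about which factors bind there. Exons of Setd7, Nsd2, Kmt2a, Kmt2c, Ash1l and Ezh2 overlap a gene on the opposite strand (5031434O11Rik, Nelfa, AC061963.1, Gm42585, Dap3 and Gm26625, respectively). The strandedness of the counting is not given in the sources used here, so reads of these pairs may not be separated.

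The listed genes received 25.9 to 44.8 M reads per culture and 26.9 to 125 M per tumour (M, megareads). Markers of the osteoblast and chondroblast lineage were listed for 7 of 9 genes in the cultures and 9 of 9 in the tumours. Sp7 and Acan were not listed in the cultures. The tumour libraries varied far more than the cultures. The median within-group standard deviation of the 10 genes was 1.78 on the log2 scale in the tumours and 0.10 in the cultures, against 1.21 and 0.08 over all genes. Of the 11239 genes with 1000 or more reads in at least 1 tumour, 26.1% had 0 reads in another, whereas 0 of 8030 such genes did so in the cultures. NT tumour 4 stood apart from its group, with Spearman correlations across genes of 0.249 to 0.481 to the other NT tumours. NT tumour 2 correlated at up to 0.757 with its group but was closer to a combination tumour (0.89). Tumour results below are also given without NT tumour 4, and without both, where the call changes.

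Normalized counts per kilobase of merged exons, the scale on which levels of different genes were compared, placed Kmt2d highest in all 6 culture groups, at 427 to 914 per kb. In log phase NT cultures the next 4 were Kmt2a (215 per kb), Setd2 (213), Ezh2 (211) and Setd7 (187), and neighbouring genes in this order overlapped between cultures. Ash1l (178), Nsd2 (170) and Nsd3 (167) followed. Nsd1 (103 per kb) and Kmt2c (56.6) were lowest and did not overlap with their neighbours. The place of Setd7 in this order varied between groups. It was second in log phase DkkMo cultures (258 per kb), where it overlapped with Ezh2, and second in stressed scrMo (284 per kb), where it overlapped with Kmt2a. In stressed DkkMo cultures it was second at 361 per kb and did not overlap with Setd2. In stressed NT cultures it was seventh of 10 at 194 per kb. Nsd1 was ninth of 10 in 5 groups and last in stressed NT cultures at 52.5 per kb, below Kmt2c at 76.7.

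**Figure D1:**
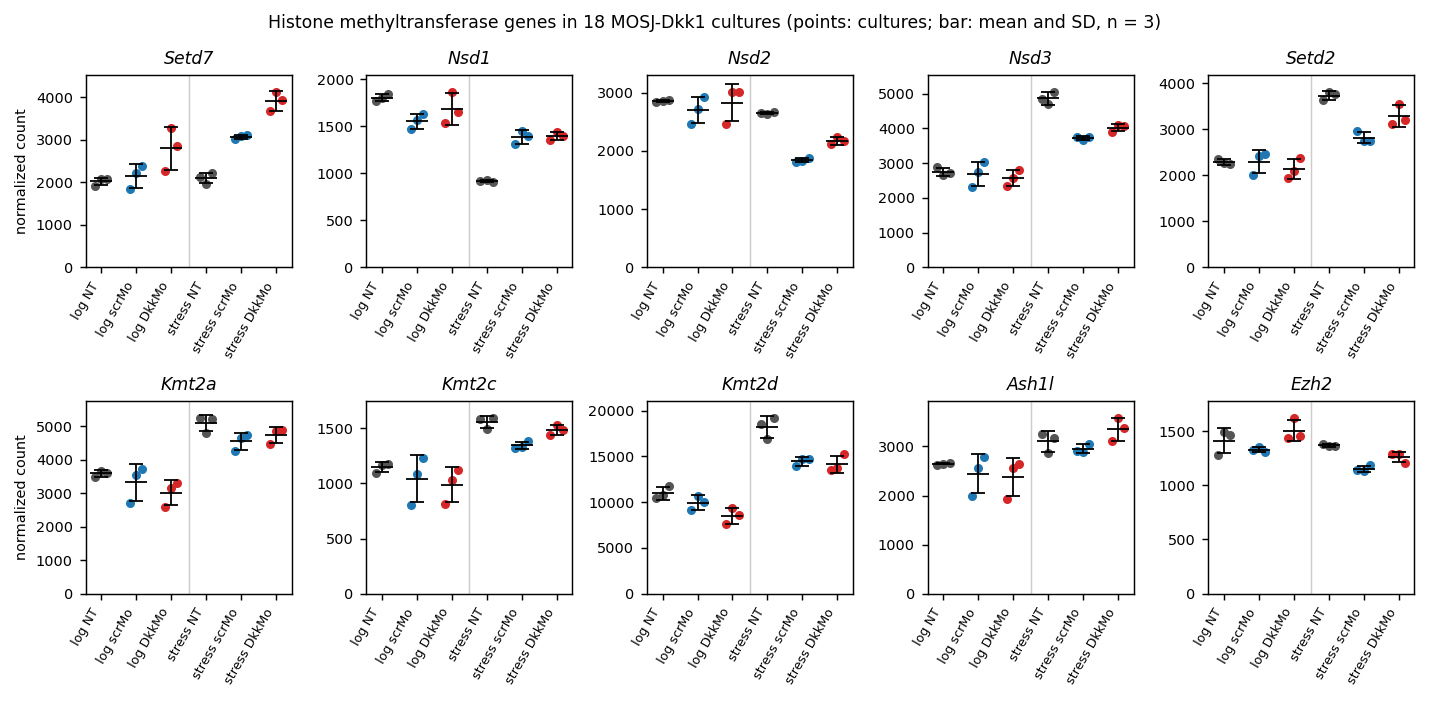
Normalized counts of the 10 genes in the 18 cultures, one panel per gene; points are single cultures, and bars give the mean and SD of 3. Setd7 was highest in the stressed DkkMo cultures (3673 to 4119), and Nsd1 was lowest in the stressed NT cultures (911 to 926).

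Under nutritional stress without morpholino, Nsd1 fell while 5 of the other 9 genes rose. Nsd1 read 1771, 1808 and 1841 normalized counts in log phase NT cultures and 918, 926 and 911 in stressed ones, so the groups were far apart and each was tight. Its mean fell to 0.508 times the log phase level, by 0.81 on the log2 scale (standard error 0.06, adjusted p = 2.03e-10, limma). In contrast, Nsd3 read 2886, 2665 and 2718 in log phase and 4853, 4689 and 5046 under stress, a rise of 0.76 (standard error 0.07, adjusted p = 1.31e-08, limma). Setd2, which completes H3K36 trimethylation, rose by 0.64, and the enhancer enzyme Kmt2d rose by 0.72, from 10407, 10739 and 11717 to 18578, 16899 and 19167. Kmt2a rose by 0.47 and Kmt2c by 0.36.

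Setd7 read 1919, 2066 and 2076 in log phase NT cultures and 2123, 1970.2 and 2215 under stress, and these groups overlapped. Its difference was 0.05 (95% interval -0.14 to 0.24, adjusted p = 0.649, limma). Nsd2 (-0.09), Ash1l (0.21) and Ezh2 (-0.03) also did not pass. In all, 5 of the 10 genes rose and 1 fell, where 31.5% and 34.1% of all genes tested rose and fell. The calls for these 6 genes held with each culture left out in turn. Over all genes, 5213 rose and 5651 fell. With each library centred on its median the split became 8422 and 3574, and with voom on the recovered reads 3975 and 7186. The median of all genes was -0.01 as deposited, 0.14 when centred and -0.19 with voom, so differences are best read against these. Nsd1 lay at -0.65 when centred and -1.14 with voom, below the median in each case. Ezh2 was called higher by 0.12 when centred and lower by 0.20 with voom.

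In the same comparison all 9 measured proliferation genes fell, with a median of -2.21, and Mki67 was 0.0181 times its log phase level. The part of growth in the values of the 10 genes was not tested.

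The response to stress was also examined within the morpholino-treated cultures, a comparison added after the data were seen. In scrMo cultures Setd7 read 1847, 2221 and 2393 in log phase and 3019.7, 3097 and 3105 under stress, a rise of 0.47 (standard error 0.09, adjusted p = 0.000236, limma). In DkkMo cultures it read 2269, 3264 and 2845 in log phase and 3673, 4119 and 3935 under stress, a rise of 0.46 (adjusted p = 0.000235, limma). In neither treatment did the 2 conditions overlap. Nsd1 fell by 0.14 in scrMo (adjusted p = 0.0373, limma) and by 0.23 in DkkMo (adjusted p = 0.00145, limma), less than in NT.

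In each of these treatments 7 of the 10 genes rose with stress and 3 fell, where 28% of all genes rose and 30.8% fell in scrMo, and 30.4% rose and 35.2% fell in DkkMo. The genes that fell were Nsd1, Nsd2 and Ezh2 in both. Nsd2 kept its call under every scaling tried. When the libraries were centred, Nsd1 lay at -0.07 in scrMo and -0.06 in DkkMo, Ezh2 lay at -0.10 and -0.05, and none of these passed (adjusted p = 0.242, 0.31, 0.083 and 0.421, limma). Quantile normalization also ended the calls for Ezh2 in both and for Nsd1 in scrMo. Nsd2 fell by 0.49 in scrMo and by 0.34 in DkkMo. The call for Nsd1 in scrMo was lost when any of 4 cultures was left out, namely log phase scrMo 2 or 3 or stressed scrMo 1 or 3. The call for Ash1l was lost in 4 of 6 such fits and that for Kmt2c without log phase scrMo 1. Over all genes 4636 rose and 5108 fell in scrMo, which became 6061 and 4025 when centred, and in DkkMo 5034 and 5827 became 8594 and 3672.

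**Figure D2:**
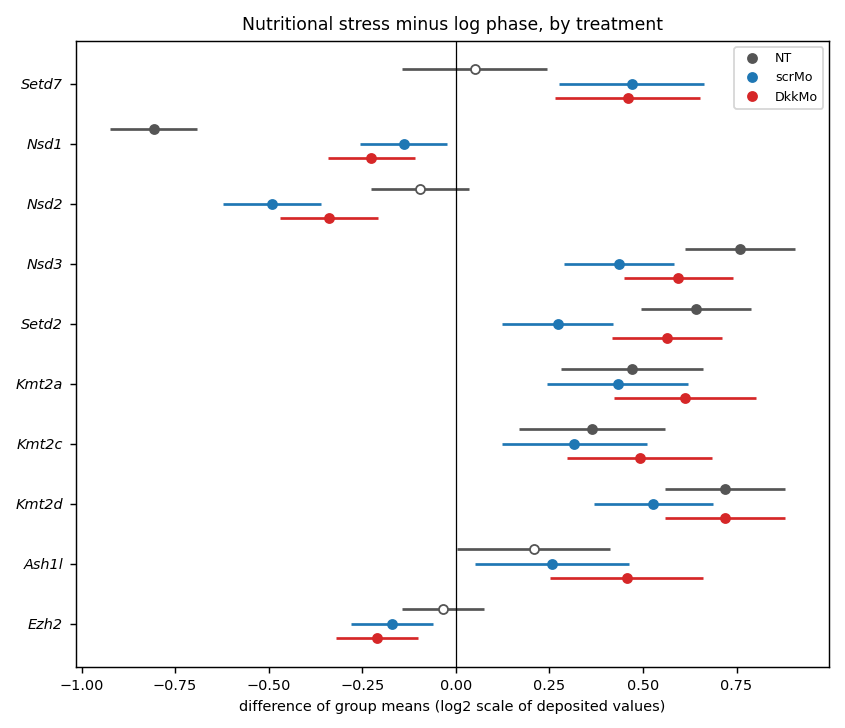
Difference between stressed and log phase cultures for each gene, by treatment, on the log2 scale of the deposited values; lines are 95% intervals, filled points passed an adjusted p of 0.05 and open points did not. Nsd1 lies at -0.81 in NT, -0.14 in scrMo and -0.23 in DkkMo, and Setd7 at 0.05, 0.47 and 0.46.

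Next, scrMo was compared with NT in each condition, which describes the control morpholino itself and uses the same cultures. Under stress, scrMo cultures had 1.46 times as much Setd7 as NT cultures (difference 0.49, standard error 0.09, adjusted p = 0.000241, limma) and 1.51 times as much Nsd1, which read 1311, 1449.8 and 1399.5 in scrMo (difference 0.48, standard error 0.06, adjusted p = 1.3e-06, limma). Neither gene overlapped between the groups. Nsd2 fell by 0.47, from 2643, 2640.1 and 2675 to 1814, 1830.2 and 1876. Setd2 fell by 0.37, Nsd3 by 0.36, Kmt2d by 0.33 and Ezh2 by 0.21.

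Thus 2 of the 10 genes rose and 5 fell, where 22.1% of all genes rose and 24.7% fell, and all 7 calls held with each culture left out in turn. Kmt2d was not called with voom or quantile normalization, nor Ezh2 with voom. Over all genes, 3655 rose and 4088 fell, against 2816 and 5018 when centred and 5209 and 2478 with voom. In log phase 1 gene changed: Nsd1 read 1469.9, 1564 and 1632 in scrMo and fell by 0.19 (adjusted p = 0.0175, limma), where 14.6% of all genes fell and 11.8% rose. This call was lost when centred, with only the 2 groups in the model, and without log phase NT 2 or 3 or scrMo 1. The split over all genes was 1954 higher and 2411 lower, and 3423 and 1750 when centred. In log phase, all 9 proliferation genes fell with scrMo, by a median of 0.45, and the part of growth in the Nsd1 value was not tested.

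The difference between the 2 conditions was itself tested, also after the data were seen. The effect of scrMo against NT was larger under stress for Setd7 (by 0.42, standard error 0.13, adjusted p = 0.0134, limma) and for Nsd1 (by 0.67, standard error 0.08, adjusted p = 1.9e-06, limma). It was lower for Nsd2 (-0.40), Nsd3 (-0.32) and Setd2 (-0.37). These 2 higher and 3 lower calls compare with 22.8% and 23.2% of all genes, and all 5 held with each culture left out. With voom Nsd3 and Setd2 were not called, nor Nsd3 with quantile normalization. The split over all genes was 3773 higher and 3839 lower, 2585 and 5485 when centred, and 5035 and 2496 with voom.

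DkkMo was compared with scrMo in each condition, the comparison that controls for the morpholino chemistry. Setd7 was the one member called in both conditions. In log phase it rose by 0.33 (standard error 0.09, adjusted p = 0.0139, limma), from 2153 ± 279 to 2793 ± 499.9 normalized counts (SD, n = 3), although single cultures overlapped. Under stress it rose by 0.32 (standard error 0.09, adjusted p = 0.0184, limma), from 3074 ± 47.1 to 3909 ± 224 (SD, n = 3), without overlap. Its log phase difference exceeded that of 94.1% of genes, and its difference under stress that of 97%. The size of the effect did not pass a test of difference between conditions (-0.01, 95% interval -0.28 to 0.26, limma). The log phase call was lost with only the 2 groups in the model (adjusted p = 0.168, limma). With the replicate number added to that model as a block, the call was kept. In log phase each DkkMo culture read above the scrMo culture of the same number (2269, 3264 and 2845 against 1847, 2221 and 2393). The log phase call was also lost without DkkMo 2 or scrMo 1. The stress call was lost in 4 of 6 fits with a culture left out (without DkkMo 2 or 3, or scrMo 1 or 2).

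Nsd1 did not pass in either condition. Its DkkMo-treated cultures read 1538, 1866 and 1653 in log phase and 1354, 1439 and 1403 under stress, overlapping with scrMo in both. The differences were 0.10 (95% interval -0.02 to 0.21) and 0.01 (95% interval -0.11 to 0.13), with adjusted p values of 0.227 and 0.919 (limma).

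The other calls were small. In log phase Ezh2 rose by 0.15 (adjusted p = 0.0449, limma) and Kmt2d fell by 0.22 (adjusted p = 0.0416, limma). Thus 2 of the 10 genes rose and 1 fell, against 14.3% and 9.2% of genes tested. Each of these calls was lost in 4 of 6 fits with a culture left out: Ezh2 without DkkMo 2 or scrMo 1, 2 or 3, and Kmt2d without DkkMo 1 or 3 or scrMo 2 or 3. The Ezh2 call was also lost in 7 of 13 alternatives, among them centring, quantile normalization and voom, and the Kmt2d call in 2 of 13, with voom and with only the 2 groups in the model. The proliferation genes all rose here, 9 of 9 with a median of 0.67, and Mki67 was 2.19 times its scrMo level. Whether that has a part in the values of the 10 genes was not tested. Under stress, Nsd2 rose by 0.21 and Setd2 by 0.20 (adjusted p = 0.0213 and 0.0482, limma). That made 3 of 10 higher and 0 lower, against 9.97% and 10.9% of all genes, and 1 of 9 proliferation genes rose. Nsd2 was lost in 4 of 6 fits (without DkkMo 2 or 3, or scrMo 1 or 2) and Setd2 in 4 of 6 (without DkkMo 2 or 3, or scrMo 2 or 3), and Setd2 also with quantile normalization. The splits over all genes were 2367 and 1523 in log phase, or 1568 and 3374 when centred, and 1652 and 1812 under stress, or 2308 and 1333 when centred.

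Setd2 was called in the test of whether the effect of DkkMo differed between conditions (0.29, standard error 0.10, adjusted p = 0.0415, limma). It had read 1937, 2099 and 2375 with DkkMo in log phase and 3116, 3558 and 3193 under stress. It was 1 of 10 genes higher and 0 lower, where 8.93% and 13.2% of all genes were called. Without log phase scrMo 1, 5 genes were called, but the share of all genes called in that fit was not counted. The Setd2 call was lost in 8 of 12 fits with a culture left out; the 4 that kept it left out log phase DkkMo 3, log phase scrMo 1, stressed DkkMo 1 or stressed scrMo 1. The split over all genes was 1479 higher and 2194 lower, and 3510 and 1351 when centred.

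**Figure D3:**
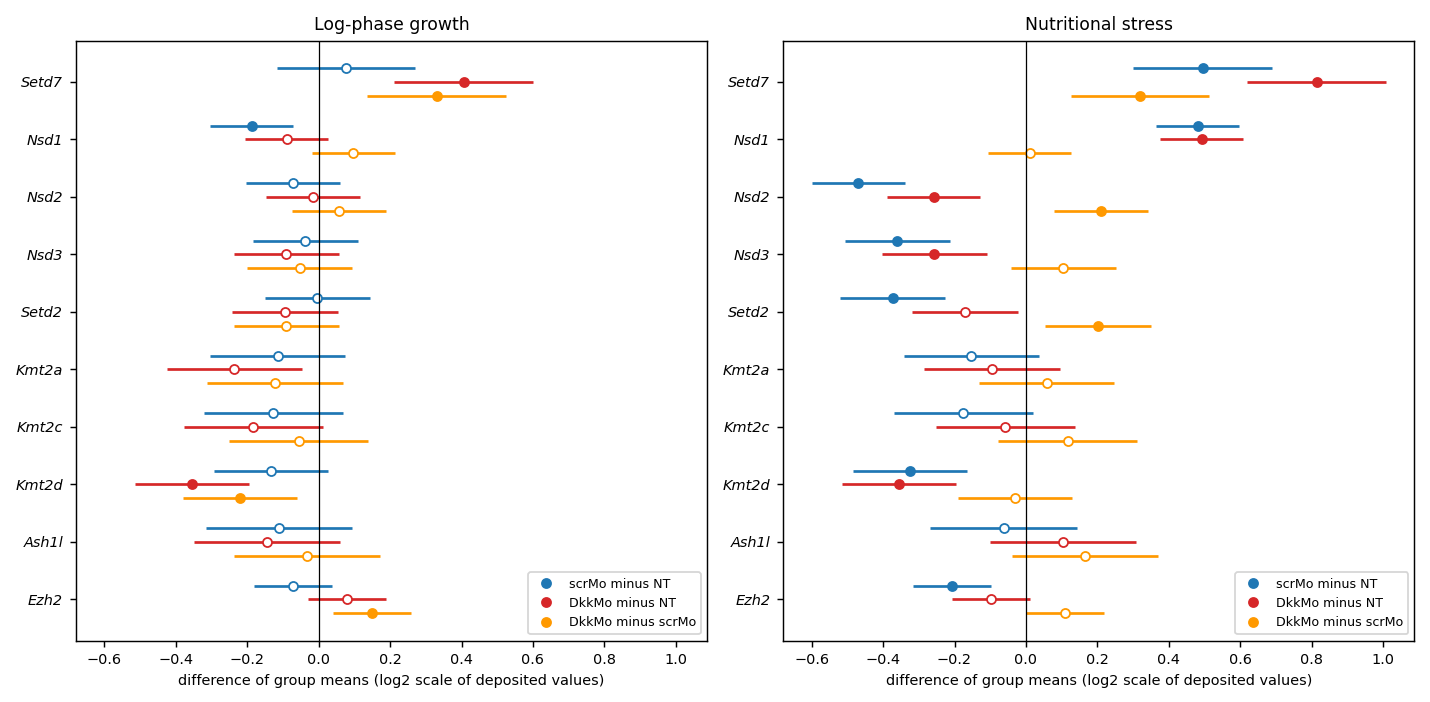
Differences between treatments for the 10 genes in log phase and under stress, on the log2 scale of the deposited values; lines are 95% intervals, filled points passed an adjusted p of 0.05 and open points did not. Setd7 is above 0 in both comparisons of DkkMo with scrMo (0.33 and 0.32), and Nsd1 is above 0 under stress for scrMo against NT (0.48) but near 0 for DkkMo against scrMo (0.01).

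Set against untreated cultures, a comparison added after the data were seen and one that shares its groups with those above, Setd7 was 0.41 higher with DkkMo in log phase (adjusted p = 0.00752, limma) and 0.81 higher under stress (1.86 times, adjusted p = 1.84e-06, limma). These calls held with each culture left out. The log phase Setd7 call was lost with only the 2 groups in the model, where 0 of the 10 genes were called higher and 1 lower. Kmt2d fell by 0.36 in log phase. In log phase 1 gene rose and 1 fell, against 5.36% and 4.46% of all genes. Under stress Nsd1 rose by 0.49, and Nsd2 (-0.26), Nsd3 (-0.26) and Kmt2d (-0.36) fell. The 3 lower calls ended with quantile normalization, where the differences were -0.14, -0.12 and -0.15, and with voom, where they were -0.13, -0.11 and -0.20. That made 2 higher and 3 lower, against 19% and 22.7%. Over all genes 3148 rose and 3759 fell under stress, and 5280 and 1735 with voom. The effect of DkkMo against NT was larger under stress for Setd7 (by 0.41, adjusted p = 0.0249, limma) and Nsd1 (by 0.58, adjusted p = 3.5e-05, limma), and lower for Nsd2 (-0.24), where 12.3% of all genes were called higher and 16.8% lower. The Setd7 call was lost without log phase NT 2 or 3, log phase DkkMo 1, stressed NT 2 or stressed DkkMo 2, and the Nsd2 call in 11 of 12 fits, log phase DkkMo 1 being the exception, and under centring, quantile normalization and voom. The split over all genes was 2038 and 2781, and 3675 and 1071 with voom.

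The position of Setd7 and Nsd1 against the other 8 genes was then described by subtracting, in each culture, the median deposited value of those 8. This is a description with no test, and because the values are not scaled by gene length only its change between groups is informative. For Setd7 the mean rose in log phase from -0.37 in NT to -0.22 in scrMo and 0.15 in DkkMo, and under stress from -0.63 to 0.08 and 0.22, without overlap between successive groups. For Nsd1 it was -0.51, -0.62 and -0.49 in log phase, with overlap, and -1.63, -0.93 and -1.10 under stress. Both genes were thus lowest against the others in stressed NT cultures.

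**Figure D4:**
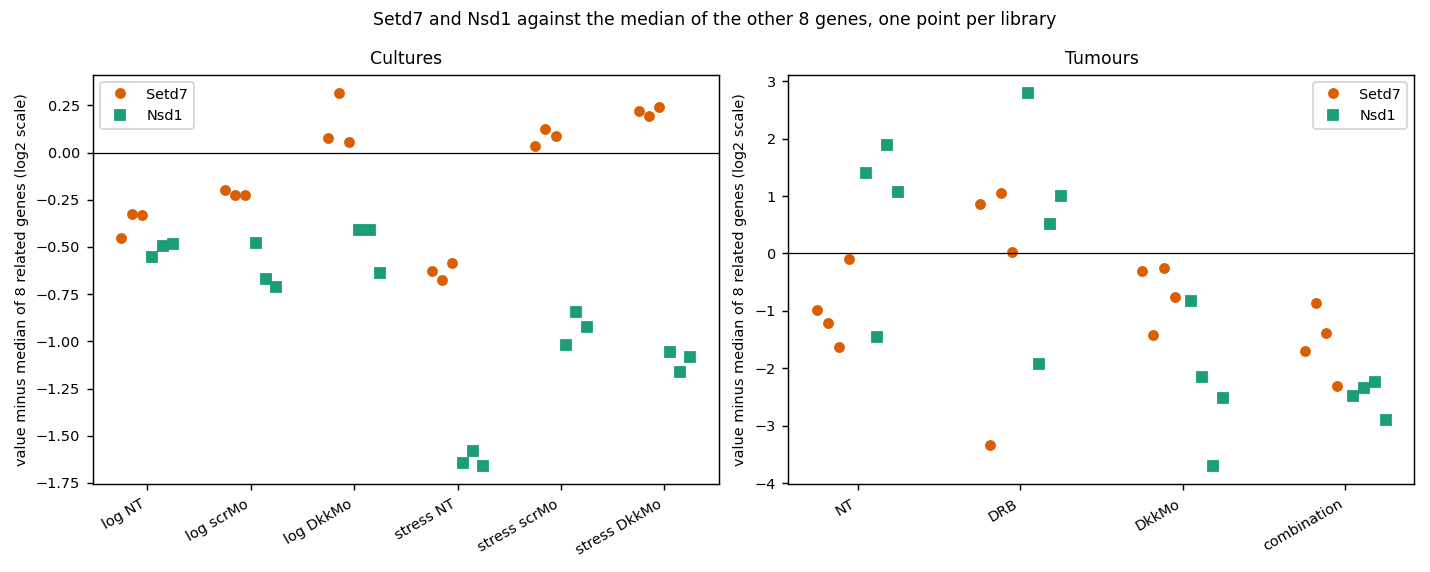
Deposited value of Setd7 (circles) and Nsd1 (squares) minus the median of the other 8 genes in the same library, on the log2 scale, with 1 point per culture or tumour. In the cultures Nsd1 falls to a mean of -1.63 in stressed NT, and in the tumours it ranges from -2.90 to -2.25 in the combination group and from -1.93 to 2.79 with DRB.

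Other genes of histone lysine methylation were counted from lists chosen with results of these data known. Of 23 further methyltransferases listed in the cultures, 14 rose and 6 fell under stress without morpholino, where 31.5% and 34.1% of all genes did so, a balance that turned with the scaling as given above. The median was 0.23 against -0.01 over all genes. The largest changes were those of the H3K79 methyltransferase Dot1l (1.38), the H3K4 enzymes Setd1b (0.94) and Kmt2b (0.60), and Ezh1 (0.82), the paralogue of Ezh2. Of 21 partners of the methyltransferase complexes, 11 rose and 6 fell. Among those of Polycomb, Jarid2 rose by 1.33 and Phf1 by 0.67, and Phf19 fell by 1.25. The H3K4 partner Wdr82 fell by 0.61. Of 19 demethylases, 12 rose and 1 fell, with Jmjd1c at 0.82, Kdm3a at 0.82, Phf2 at 0.76 and Kdm7a at 0.70. With scrMo against NT under stress, 4 methyltransferases were higher and 12 lower of 23, 4 and 8 of 21 partners, and 2 and 4 of 19 demethylases, where 22.1% and 24.7% of all genes were higher and lower. Dot1l fell by 0.78 and Jarid2 by 0.78. With DkkMo against scrMo, 0 and 2 of the 23 methyltransferases rose and fell in log phase (14.3% and 9.2% of all genes) and 5 and 1 under stress (9.97% and 10.9%).

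In the tumours, Nsd1 was far lower with the combination than with DRB. It read 9861, 106, 4805 and 58648 normalized counts in the NT tumours, 43674, 1219.7, 4005 and 3092 with DRB, 291, 201, 0 and 19 with DkkMo, and 108, 0.841, 94.3 and 7.85 with the combination. All 4 tumours of the combination lay below all 4 of DRB, whereas DkkMo and NT overlapped through NT tumour 2. In a whole tumour, fewer cells of a type and less RNA per cell cannot be told apart. Against DRB alone the combination fell by 5.20 (standard error 1.30, adjusted p = 0.0233, limma, exact permutation p = 0.0286, two-sided, the smallest that 4 against 4 allows). This call was lost without DRB tumour 1 or combination tumour 2 or 4, with adjusted p values of 0.0264 to 0.0942 over the fits with a tumour left out, and with voom (adjusted p = 0.144).

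Kmt2d read 6876, 3434, 707 and 671 with DRB and 16.4, 0, 48.7 and 1.43 with the combination, without overlap. It fell by 4.27 (standard error 1.29, adjusted p = 0.0498, limma). This call was lost in 6 of 8 fits with a tumour left out (all 4 of the combination and DRB 1 and 2), and with the libraries centred, quantile normalization, no variance trend or voom, where the adjusted p rose to at most 0.0899. Setd7 read 11406, 375, 5890.2 and 1491 with DRB and 269, 107, 262 and 41.4 with the combination. Those groups did not overlap either, but the difference of -3.33 (95% interval -5.77 to -0.89) did not pass (adjusted p = 0.0822, limma). Nsd2 (-3.14, adjusted p = 0.0816, limma) was alike in both respects.

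Thus 2 of the 10 genes fell and 0 rose, where 6.92% of all genes fell and 0.429% rose. The groups of 4 of the 10 did not overlap with the combination lower, and of 0 with it higher, as was so for 18.3% and 2.07% of all genes. The median difference of the 10 genes was -2.88 and that of all genes -0.71. Over all genes 54 rose and 872 fell, against 173 and 298 when centred and 2101 and 174 with voom. The median of all genes was 0.33 when centred and 1.34 with voom, so the direction of the table as a whole depended on the scaling. Nsd1 lay at -4.16 when centred and -5.86 with voom, Setd7 at -2.29 and -1.94, and Kmt2d at -3.23 and -6.25. Without NT tumour 4, which enters this comparison only through the estimate of the spread, 5 of the 10 genes were called lower, Setd7 among them (adjusted p = 0.0162, limma), where 16.5% of all genes were called lower and 0.992% higher. Without NT tumours 2 and 4 the count was also 5, against 15.9% and 0.945%.

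Ezh2 and Nsd3 had the smallest differences between combination and DRB tumours after scaling as deposited, and neither passed. Ezh2 read 2278, 546, 2478 and 2278 with DRB and 3027, 3524, 3982 and 1835 with the combination (0.79, 95% interval -0.60 to 2.18), and with voom it was called higher by 3.22 (adjusted p = 0.022). Nsd3 differed by -0.07. Kmt2a had 0 reads in 4 of the 16 tumours, namely 1 with DRB, 1 with DkkMo and 2 with the combination.

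Other values of the DRB and combination tumours stand beside these. Libraries of DRB tumours held 85.3 to 106 M reads and those of the combination 28.3 to 41.1 M, and 1.31% to 2.51% and 4.26% to 11.7% of genes had no reads. The 10 most abundant genes took 46.7% to 73.6% of the reads with DRB and 13.5% to 18.6% with the combination. The summed normalized counts of the 3 macrophage genes listed, of 6, were 12057 to 196098 with DRB and 4251 to 6825 with the combination. Of these 3, Ptprc, which other leukocytes also express, was called lower, and 2 were not called. The sums of the 3 endothelial genes were 7662 to 87381 and 3698 to 9059, which overlap, and 0 of the 3 were called. The neutrophil, osteoclast and adipocyte lists held 1 gene each, which differed by 0.26, 1.00 and -2.01, and none was called. Of the defining markers, Cd68, Lyz2 and C1qa were not listed, and neither were any of the 7 muscle or 3 erythroid markers. The sums of the 9 osteoblast and chondroblast lineage genes were 22130 to 25038 with DRB and 19102.5 to 35499 with the combination, which overlap. Of these 9, Acan was called lower. Of 10 proliferation genes 2 were listed, with sums of 82.7 to 2371 and 0 to 124, which overlap, and 0 of the 2 were called. Over all genes 6.92% were called lower. The part of these values in the results of the 10 genes was not tested.

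For DkkMo against NT, Nsd1 had a difference of -4.74 (standard error 1.30), lower than that of all but 0.1% of genes, but did not pass (adjusted p = 0.272, limma, exact permutation p = 0.0857, two-sided). Without NT tumour 2 it was called (adjusted p = 0.0207, limma), and without NT tumours 2 and 4 it was not (adjusted p = 0.0954, limma). Setd7 read 1764, 146, 296 and 25806 with NT and 474, 409, 675 and 281 with DkkMo, so the groups overlapped, and differed by -1.42 (95% interval -3.86 to 1.02). In this comparison 0 of the 10 genes and 0% of all genes were called by limma, and voom also called 0 genes. At an unadjusted p under 0.05 limma gave 1554 genes, 2 of them members, and voom 1738. The median difference was -1.39 for the members and -0.54 for all genes.

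The remaining tumour comparisons gave no calls either. For DRB against NT, the combination against DkkMo and the interaction of DkkMo with DRB, limma called 0% of all genes, and voom likewise called 0 genes. At an unadjusted p under 0.05 there were 1500, 150 and 853 genes, of which 1, 0 and 0 were members, and with voom 1971, 163 and 1176. Without NT tumour 4, DRB against NT had 126 genes higher and 13 lower, 0 of them members. Of the DRB and NT groups, Nsd1 and Setd7 overlapped. These absent calls do not show equal levels: for Nsd1 the 95% interval of the combination against DkkMo ran from -3.11 to 2.31.

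**Figure D5:**
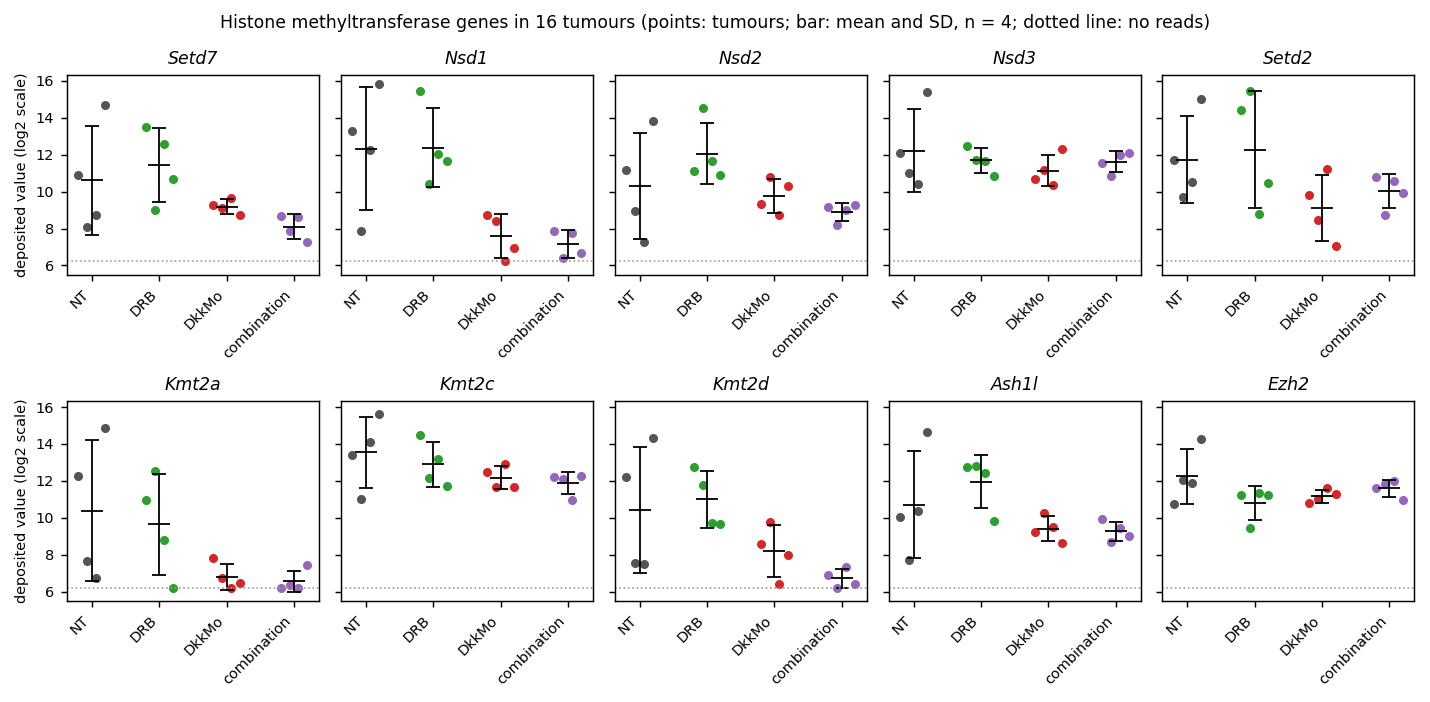
Deposited values of the 10 genes in the 16 tumours on the log2 scale, one panel per gene; points are tumours, bars give the mean and SD of 4, and the dotted line is the value of a gene without reads. The combination lies below DRB without overlap for Setd7, Nsd1, Nsd2 and Kmt2d, and NT tumours spread widely in every panel.

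Per kilobase, Ezh2 (medians of 318 and 491) and Kmt2c (215 and 219) led in the DkkMo and combination tumours, and Nsd1 was ninth at 6.3 and eighth at 2.92. In NT tumours Nsd1 ranked 3 of 10 (419 per kb), but the ranges of all neighbours in the order overlapped there and in the DkkMo tumours, as did all but Ezh2 and Kmt2c in the combination. Of the other lists, the combination had lower Setd5 (-4.47; 1 of 16 methyltransferases), the Polycomb partners Aebp2 (-5.59) and Rbbp4 (-3.67; 2 of 10), and 4 of 12 demethylases, namely Kdm3a, Kdm5a, Kdm7a and Jmjd1c, and none of these genes was higher. Over all genes 6.92% were lower and 0.429% higher, so the count of methyltransferases is near that share.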

How the data were processed

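RNA from 18 cultures and 16 tumours was sequenced in paired-end format. Per the labels, the authors aligned reads with HISAT2 2.1.0 to GRCm38, counted them with featureCounts of Subread 2.0.0 and SAMtools 1.9, and ran the DESeq2 variance-stabilising transformation. The deposited values are on the log2 scale, each table transformed alone, which compresses changes of genes with few reads. Strandedness and the treatment of multiply mapped reads are not given in the sources used here.

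The transformation was reversed from the values, with 7.20 (cultures) and 6.23 (tumours) standing for no reads. This gave whole reads within a tolerance of 0.1 for values below 1000 reads. Of 16576 culture genes, 14 that spanned over 6 units within a group were set aside. This rule was not applied to the tumours, where members also spanned over 6 units within a group. In the NT tumours, for example, Nsd1 ran from 7.86 to 15.84 and Setd7 from 8.11 to 14.66. Genes needed values above the lowest in 3 culture or 4 tumour libraries, which removed none. Differences of group means were tested with limma 3.58.1 (R 4.3.3), fitting a mean for each group over every library of the table, with a variance trend and Benjamini-Hochberg adjustment over all genes. A gene was called, and is said to have risen or fallen, at an adjusted p below 0.05. Exact permutation tests were two-sided, with smallest p values of 0.1 (3 against 3) and 0.0286 (4 against 4). The test was checked on simulated data, modelled on log phase DkkMo against scrMo, where it recovered the changes set, and on tumour DkkMo against NT, where it did not, so an absent call in tumours does not show that levels did not differ. In the cultures the changes set were larger than any member difference called in that comparison, so recovery of differences that small was not checked. Tables and figures used Python 3.11.15, pandas 2.3.3, numpy 2.4.6 and matplotlib 3.10.9.

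The members and lists were chosen with earlier results of these data known. All 10 members are named. Other genes of a list are named where they passed an adjusted p of 0.05 and 1.5-fold, at most 4 per list and comparison. The 3 genes most correlated with Setd7 and with Nsd1 in each table are named in the closing section, except 1 that is not reported here. Promoters are from RefSeq and exon lengths from GENCODE. Alternatives were no filter, genes above the median gene, only the groups compared, no trend, centring, quantile normalization, log2 of the normalized count plus 1 or 10, array weights, voom, the replicate number as a block, a 1.5-fold threshold, another control, and each library left out. Comparisons of DkkMo with NT cultures, of stress with log phase under morpholino, and the interactions with NT were added after the data were seen.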

Additional observations from a re-analysis of the deposited data

Results flagged for a closer look

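In 4 of the 40 sets of 4 tumours (10 genes in 4 groups), 1 tumour lay far from the other 3. The measure is the gap to the nearest tumour divided by the range of the group, set against the 95% critical value of Dixon's test, which chance exceeds in about 1 in 20 sets. Kmt2a was high in combination tumour 4 (0.873), Kmt2c was low in combination tumour 3 (0.865), Ash1l was low in DRB tumour 4 (0.869) and Ezh2 was low in DRB tumour 2 (0.941).

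The effect of a treatment differed between stress and log phase, by the interaction in limma, for 9 pairs of gene and contrast. For DkkMo against scrMo this was Setd2 (0.29). For scrMo against NT it was Setd7 (0.42), Nsd1 (0.67), Nsd2 (-0.40), Nsd3 (-0.32) and Setd2 (-0.37). For DkkMo against NT it was Setd7 (0.41), Nsd1 (0.58) and Nsd2 (-0.24). The last 2 contrasts share the NT cultures, so their agreement for Setd7, Nsd1 and Nsd2 is not independent.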

How the results depend on the processing

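Counts are of the 10 genes called. Shares of all genes called are not given beside these counts, so no count is read against a share. Of 3390 results for single genes under alternatives, 3062 kept direction and call, 142 uncalled values changed sign, 64 gained a call, 114 lost one and 8 reversed. Reversed means that the sign changed and at least 1 of the 2 values was called. Both values were called only for Nsd2 in stressed DkkMo cultures against the controls. Of 357 counts, 289 stayed within 1.5 times and 68 did not. With only the compared groups in the model, counts were 0 (log phase DkkMo against scrMo), 6 (the same under stress), 0 (log phase scrMo against NT), 0 (interaction of DkkMo with condition), 1 (log phase DkkMo against NT) and 5 (combination against DRB). With voom they were 1 (log phase DkkMo against scrMo), 2 (stressed DkkMo against NT), 3 (interaction of scrMo with condition) and 1 (combination against DRB). That last call was Ezh2 as higher, and the 2 lower calls of the main fit were lost. A further threshold of 1.5-fold left 0 in log phase and stressed DkkMo against scrMo, both comparisons of scrMo with NT, the DkkMo interaction, log phase DkkMo against NT, stress in scrMo and the interaction of DkkMo against NT, 1 in stressed DkkMo against NT and in the scrMo interaction, and 3 for stress in DkkMo. Centring gave 0 (log phase scrMo against NT), 3 (DkkMo interaction) and 1 (combination against DRB), and quantile normalization gave 2 (stressed DkkMo against NT) and 1 (combination against DRB). The latter was 1 among genes above the median or without trend, 4 with array weights and 5 without NT tumour 4 or NT tumours 2 and 4. With NT in place of scrMo, DkkMo under stress gave 5 and the interaction 3. Nsd2 (-0.26), Nsd3 (-0.26) and Setd2 (-0.17) then reversed under stress, and Setd7 (0.41), Nsd1 (0.58), Nsd2 (-0.24) and Setd2 (-0.077) in the interaction. With scrMo or DkkMo in place of NT, stress against log phase gave 10 and 10. Ezh2 reversed to 0.12 there when centred. The cause of these changes was not tested.

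The replicate numbers did not pair the cultures throughout. Correlations of deviations between log phase DkkMo and scrMo were 0.62, -0.05 and 0.57, so numbers 1 and 3 shared part of their deviation there. Under stress they were -0.06, -0.03 and 0.01, and for log phase scrMo and NT 0.02, -0.04 and 0.11. The main fits carry no block for this. With the replicate block, counts were 5 for stressed DkkMo against scrMo, 0 for log phase scrMo against NT and 4 for the DkkMo interaction. For log phase DkkMo against scrMo, where numbers 1 and 3 shared deviation, Setd7 and Kmt2d kept their calls with the block. Ezh2 lost its call in that fit, and none of the other members gained one. No block was fitted for stressed NT cultures, where a number occurs on 2 libraries, or for tumours.

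With each library left out in turn, counts ranged from 1 to 3 and from 0 to 3 for DkkMo against scrMo in log phase and under stress, from 0 to 1 and 7 to 7 for scrMo against NT, from 6 to 7, 8 to 9 and 10 to 10 for stress in NT, scrMo and DkkMo, from 2 to 2 and 5 to 6 for DkkMo against NT, and from 0 to 5, 5 to 5 and 1 to 2 for the interactions of DkkMo, scrMo and DkkMo against NT. In tumours they ranged from 0 to 1 (DkkMo against NT), 0 to 2 (combination against DRB) and 0 to 0 in the other 3 comparisons. The within-group spread of tumours and the low counts of Kmt2a, Kmt2d and Nsd1 in the combination group limit the precision there.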

Other observations

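Among the genes whose deposited values ran closely with Setd7 over the 18 cultures, of 7868 genes above the median gene, were Nabp1 (Pearson's r = 0.954) and Pdk4 (0.938), a kinase of the pyruvate dehydrogenase complex. Those most like Nsd1 were Prx (0.979), Ptgr2 (0.978) and Lrrc75b (0.959). Over the 16 tumours, among 4871 genes, they were Hif1a (0.947), Gnaq (0.937) and Trip12 (0.932) for Setd7 and Rps24 (0.971), Cisd2 (0.969) and Prf1 (0.953) for Nsd1. These are descriptions over libraries that share groups and, in the tumours, depth and quality.

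Among the members, Nsd1 ran opposite to Nsd3 (r = -0.84), Setd2 (-0.82) and Kmt2d (-0.79) over the cultures, and Setd7 and Nsd1 had an r of 0.09. Over the tumours Setd7 and Nsd1 had an r of 0.86, and the r of Setd7 with the other 8 members lay between 0.40 with Ezh2 and 0.82 with Ash1l and Kmt2d. The r of Nsd1 with those 8 lay between 0.24 with Ezh2 and 0.87 with Kmt2d. Nsd1 thus ran as closely with Kmt2d as with Setd7.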
